A study of Homo sapiens with 16 samples.

Results

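Pool A, 1 of 3 pools of RNA collected from fractionated polysomes, was compared with total RNA of the same cells after 4 h of dexamethasone. The comparison takes 4 of the 16 bead arrays of the series, the columns N4A and X4A of pool A against N4T and X4T of total RNA, and every gene detected on at least 2 of the 16 arrays, 10163 genes in all. The cells were MM1.S, a human multiple myeloma line. The cultures were in log phase in RPMI medium with 10% FBS and received 1 uM dexamethasone, a synthetic glucocorticoid, for 0 or 4 h. At each time all 3 pools and the total RNA were collected, which makes 8 groups of 2 arrays. Total RNA came from TriZol, whereas the RNA of the pools was freed of sucrose with isopropanol, phenol and chloroform, so that the kind of RNA and the way it was purified cannot be told apart. All groups shared the cell line, and both groups of the main comparison shared the drug and its time. The part of the gradient behind each pool and the meaning of the prefixes N and X are not stated in the labels or file headers. Nothing says that the 2 arrays of a group came from separate cultures, so p-values measure the spread between these arrays, which may be technical.

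In a sucrose gradient, free RNA and small particles stay near the top, and mRNAs that carry more ribosomes move deeper. An mRNA's place thus depends on how often it is translated and on how long its coding sequence is, and ribosomal subunits and other particles sediment on their own. Myeloma cells keep the program of the plasma cell, with a large endoplasmic reticulum (ER), strong chaperones and a busy proteasome. Glucocorticoids act through the receptor NR3C1, a transcription factor that induces genes such as TSC22D3, FKBP5 and DDIT4.

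A level below is the normalized log2 intensity of 1 probe on 1 array, and a difference is the mean of the 2 pool A arrays minus the mean of the 2 total RNA arrays, with its standard error (SE) from limma. Called means an adjusted p under 0.05 over all 10163 genes. Levels of different probes are not on a common scale and were not set against each other. The 2 arrays of pool A correlated at r = 0.977 across genes and those of total RNA at 0.991. Between 27.2% and 27.7% of the probes were detected in pool A and between 30.03% and 31.3% in total RNA, and median raw intensities were 143.1 to 160.4 and 129.4 to 157.3. Of 13 plasma cell markers, 11 were detected on both total RNA arrays and 12 on both pool A arrays, with CD27 on none. Their summed linear signal was 31305 and 32975 in pool A and 59839 and 59725 in total RNA. Of the myeloid markers, CD14, LYZ and CSF1R were detected on none of the 4 arrays and CD68 was, higher in pool A by 0.87 (adjusted p = 0.00525 in limma). None of 5 T cell, 4 epithelial or 4 fibroblast markers was detected on both arrays of either group. The untreated X arrays lay nearer to the treated arrays than the untreated N arrays did in 3 genes that dexamethasone induces. In total RNA TSC22D3 stood at 10.00 and 12.38 at 0 h (N and X) and at 13.29 and 13.43 at 4 h, FKBP5 at 9.48 and 11.06 and then 12.32 and 12.48, and DDIT4 at 9.84 and 13.03 and then 13.75 and 13.91. Pool A at 0 h went the same way, at 10.15 and 11.74, 9.64 and 10.44, and 10.07 and 12.71 for these genes in turn. Whether these X arrays match their labelled time was not tested, and every value of 0 h below rests on them in part. In bulk RNA, fewer cells that hold a transcript and less of it in each cell cannot be told apart.

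Pool A differed from total RNA in 4665 of 10163 genes. In limma, 1903 of 10163 genes (18.7%) were higher in pool A and 2762 (27.2%) were lower. The arrays of the groups did not overlap in 1901 of the first and in all 2762 of the second, and they did not overlap in 7780 of all 10163 genes (76.6%) either, called or not. Differences reached 2-fold in 1173 of the genes called higher and 1658 of those called lower, and 4-fold in 153 and 215. The 4 arrays fitted alone gave 4914 calls in place of 4665. These values are relative to the other genes on an array, because quantile normalization gives every array the same distribution, and the amount of RNA in the pool is not given. The median of all genes was -0.16 in the quantile-normalized data and -0.62 when only the array medians were equalized, and under that median scaling 804 genes were higher and 4801 lower. The share of higher genes among the calls was thus 40.8% in the first and 14.3% in the second, and the size of a list's difference is best read against the median of all genes.

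Noncoding RNAs were called higher more often than lower, and protein-coding genes lower more often than higher. Of 9606 protein-coding genes, 1649 were higher and 2719 lower, with a median of -0.19. Of 179 long noncoding RNAs, 87 were higher and 10 lower (median 0.79), and of 115 small nucleolar RNAs 76 were higher and 2 lower (median 1.42). All but 1 of 12 small nuclear RNAs were higher (11, median 2.17), as were both vault RNAs and 3 of 4 Y RNAs, small RNAs of cytoplasmic ribonucleoprotein particles. Transcribed pseudogenes stood at a median of 0.28, with 49 of 189 higher and 25 lower. Whether the labelling of RNAs without a poly(A) tail differed between the preparations was not tested. The probes of small RNAs can also read longer transcripts that contain them, and the genes around them are given beside them below.

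The 15 largest differences in each direction were led by small nucleolar RNAs above and by HNRNPL below. SNORD96B stood at 9.77 and 9.65 in pool A (arrays N and X) and at 5.28 and 5.98 in total RNA, where 1 array detected it, a difference of 4.08 ± 0.23 (16.9-fold, adjusted p = 5.35e-07). SNORD96A, a near-identical copy within RACK1 with which the probe may share signal, stood at 12.29 and 12.19 against 8.40 and 8.37 (3.86 ± 0.21). In both, the pool A arrays lay far above the total RNA arrays, and the split of signal between the copies is uncertain. PABPC3, an intronless relative of the poly(A)-binding protein gene PABPC1, stood at 8.74 and 9.66 against 5.04 and 5.53 (3.92 ± 0.35). PABPC1 itself was higher by 1.48 (adjusted p = 0.000565), and signal of the parent on the probe of the copy cannot be set apart. OIP5-AS1, a long noncoding RNA that binds the protein HuR, stood at 11.62 and 11.51 against 8.38 and 8.17 (3.29 ± 0.20, adjusted p = 5.72e-07).

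Other transcripts at this end included protein-coding mRNAs, long noncoding transcripts and a ribosomal RNA. SELENOW, a small selenoprotein, stood at 11.73 and 11.10 in pool A and at 8.26 and 8.21 in total RNA (3.18 ± 0.27, 9.06-fold, adjusted p = 5.73e-06). WDR5B, an intronless relative of the chromatin protein WDR5, was not detected in total RNA on either array and was at least 7.20-fold higher (mean levels 8.42 and 5.07, adjusted p = 1.31e-05). TFIP11-DT, a divergent noncoding transcript, was at least 7.51-fold higher (8.49 and 5.29). Probes of 1 gene did not always go together. The circadian transcription factor gene CLOCK stood at 11.53 and 11.25 against 8.16 and 7.78 with its brightest probe (3.42 ± 0.32), whereas a second CLOCK probe was at -0.21 and not called. For the 28S ribosomal RNA gene RNA28SN5 the brightest probe was at 3.41 ± 0.80 from unequal pool A arrays at 10.68 and 12.13 (total RNA 8.01 and 7.98), and the other was at -0.86 and not called.

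At the lower end, HNRNPL, a splicing regulator, stood at 4.64 and 4.92 in pool A, below detection on both arrays, and at 10.01 and 9.73 in total RNA. It was at least 15.7-fold lower (difference of means -5.09, adjusted p = 2.11e-06). DYNC1H1, the heavy chain of cytoplasmic dynein, stood at 5.69 and 6.10 against 9.58 and 9.53 (-3.66 ± 0.22, adjusted p = 5.72e-07) and was detected on 1 of the pool A arrays. STT3A, a catalytic subunit of the oligosaccharyltransferase that glycosylates proteins entering the ER, stood at 7.40 and 7.93 against 10.93 and 11.45 (-3.53 ± 0.28). In each of these genes the pool A arrays lay far below the total RNA arrays. STAT3, the transcription factor downstream of interleukin 6, was at least 4.08-fold lower (mean levels 4.77 and 7.92, adjusted p = 5.72e-07), and its other probes were at -1.79 and -1.42, both called. EIF4G1, the scaffold of the cap-binding complex, stood at 8.66 and 8.82 against 11.83 and 11.61 (-2.98 ± 0.29), and UBA1, the main ubiquitin-activating enzyme, at 8.89 on both arrays against 11.83 and 11.80 (-2.93 ± 0.26). MYH9, a nonmuscle myosin heavy chain, differed by -2.90, the nuclear pore protein TPR by -2.96 and the spindle protein ASPM by -2.86. GOLIM4, a Golgi membrane protein, was at least 4.06-fold lower by its brightest probe (mean levels 5.06 and 7.92), but its other probes were at 0.01 and -0.16 and were not called.

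**Figure D1:**
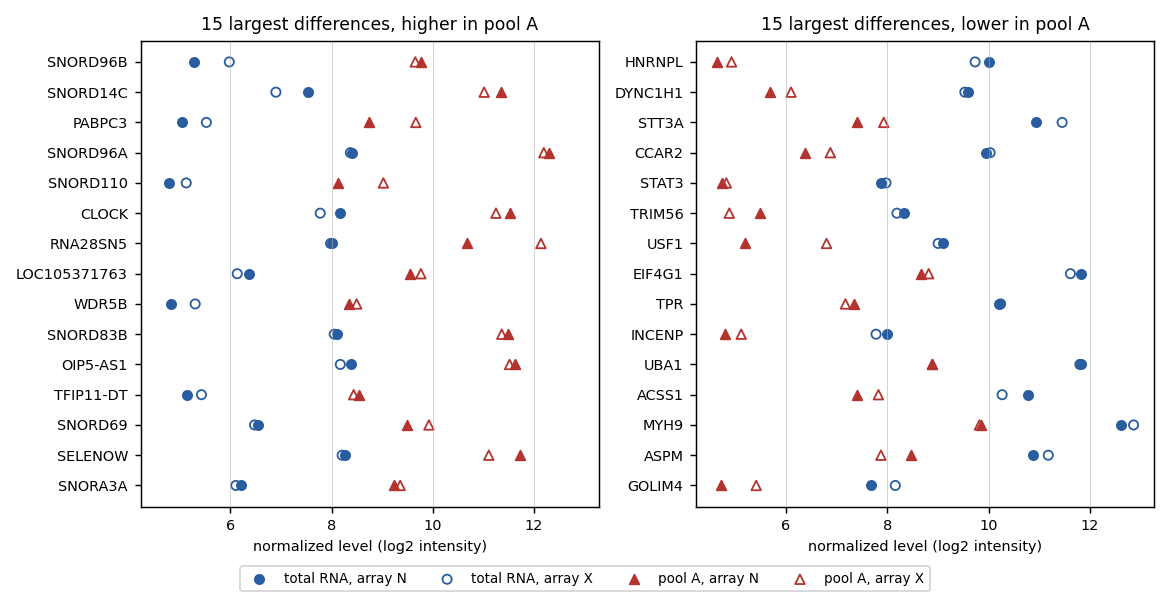
Normalized log2 intensity of the 15 genes with the largest differences in each direction, on the 2 pool A arrays (triangles) and the 2 total RNA arrays (circles) of 4 h dexamethasone, filled for N and open for X. Groups that do not overlap were a condition of the choice of these 30 genes, and the widest gap is that of HNRNPL, at 4.64 and 4.92 in pool A and 10.01 and 9.73 in total RNA.

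Small nucleolar RNAs (snoRNAs) guide the modification of ribosomal RNA and work in the nucleolus, and most human ones are cut out of the introns of other genes. Of 122 tested snoRNAs and Cajal body RNAs, 78 were higher in pool A and 2 lower, SNORD12C at -0.64 and SNORA11D at -0.85, with a median of 1.34. Of the C/D box class, which guides methylation, 43 of 65 were higher (median 1.48), and of the H/ACA class, which guides pseudouridylation, 33 of 49 (median 1.36). Of the small Cajal body RNAs, which act on spliceosomal RNAs, 2 of 8 were higher (median 0.49). Of the 122, 92 were detected on both pool A arrays and 65 on both total RNA arrays. Because a gene needed detection on 2 of 16 arrays, snoRNAs seen in the pools alone entered the list, and 39 of the 122 were detected on neither total RNA array of 4 h. Of the other 83, 57 were higher and 2 lower (median 1.45). Under median scaling the median was 0.88, which stands 1.50 above that of all genes, as it does in the quantile-normalized data. In the authors' deposited value table, 80 were higher and 1 lower, with a smaller median of 0.61, which is 0.63 above that of all genes.

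The genes around the snoRNAs were split in direction. In 65 cases the snoRNA lay within a measured protein-coding gene, and 42 of the 65 snoRNAs were higher and 0 lower. The match used chromosome position alone and took the shortest gene. Strand and intron were not checked, so a surrounding gene need not be the host. The 45 distinct genes around them were higher in 12 cases and lower in 12, with a median over genes of -0.034, and the snoRNA stood above its gene in 56 of 65 pairs. Members detected on neither total RNA array of 4 h, such as SNORD110 and SNORD43, are among the 65. Such members could pass the filter through pool A, where they are high, so the 42 and the 56 are descriptions. The pairs were not counted without them. SNORD14C stood at 11.34 and 11.01 in pool A against 7.53 and 6.90 in total RNA (3.96 ± 0.25, adjusted p = 6.58e-07), within HSPA8, the constitutive HSP70 chaperone, at -0.57 ± 0.22 (adjusted p = 0.0462). SNORD83B stood at 11.48 and 11.36 against 8.11 and 8.05 (3.34 ± 0.24), within the ribosomal protein gene RPL3 at 0.017 ± 0.20 (adjusted p = 0.953). SNORA84 stood at 8.47 and 8.54 against 6.17 and 5.91 (2.47 ± 0.23, adjusted p = 8.99e-06), within IARS1, the isoleucyl-tRNA synthetase, at -1.95 ± 0.24 (adjusted p = 4.76e-05). In these 3 pairs the snoRNA was higher in pool A while the surrounding gene was lower or not called. The pair of SNORA84 was chosen after its values were seen. SNORD110 was at least 7.999-fold higher (mean levels 8.58 and 4.96) within NOP56, which was itself higher by 1.58. SNORD68, also chosen after its values were seen, differed by 2.68 within RPL13 at 2.34.

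**Figure D2:**
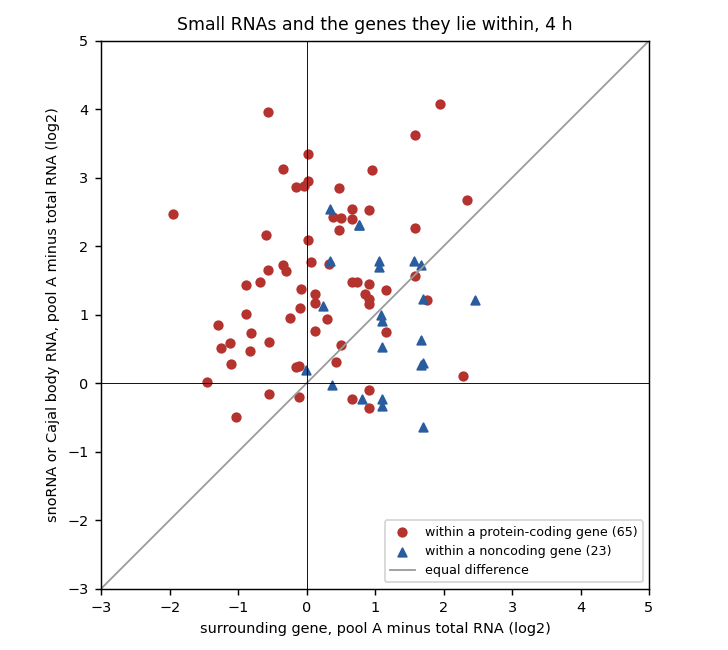
Difference between pool A and total RNA (log2) of 88 small nucleolar and Cajal body RNAs (vertical axis) against that of the measured gene each lies within (horizontal axis), with 65 in protein-coding genes and 23 in noncoding ones. The diagonal marks equal differences, and 66 of the 88 points lie above it. SnoRNAs detected on neither total RNA array of 4 h are included.

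A snoRNA host transcript is the spliced RNA left after the introns that hold snoRNAs are removed, and many hosts code for no stable protein. Of 18 tested, 14 were higher and 0 lower, with a median of 1.10, and 0.88 under median scaling. SNHG4 stood at 9.02 and 9.74 in pool A against 6.39 and 6.50 in total RNA (2.93 ± 0.25, 7.65-fold, adjusted p = 5.73e-06). EPB41L4A-AS1 stood at 12.83 and 12.69 against 10.31 and 10.30 (2.45 ± 0.18, adjusted p = 2.33e-06). ZFAS1 and SNHG8 were higher by 1.70 ± 0.19 and 1.57 ± 0.20. The groups did not overlap in any of these 4, as in 76.6% of all genes, and the 4 were named for their small p.

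Many host transcripts and ribosomal protein mRNAs begin with a C followed by pyrimidines, the terminal oligopyrimidine (TOP) tract that ties translation to growth signals. A tract was counted where the RefSeq start (GRCh38.p14) was a C followed by at least 4 further bases that are C or T, on the strand of the gene, which holds for 1104 of 27305 starts (4.04%). All 6 hosts with such a tract were higher in pool A (median 1.45), and 5 of 9 without it were (median 0.91). The rest of the 18 hosts tested had no matched start and are in neither count. Among ribosomal protein genes the medians with and without the tract lay close together, as 7 of 41 with it were higher and 1 lower (median 0.076), against 3 and 1 of 19 without it (median 0.085). Of the other protein-coding genes with a tract, 84 of 416 were higher and 97 lower (median -0.033), against 1269 and 2230 of 7609 without (median -0.22). The starts of the 6 hosts are shown because they carry the tract. Each window of 30 bases holds 10 bases before the annotated start and the first bases of exon 1, with the tract in capitals, and the differences of the 6 genes run from 2.93 down to 0.90 in the order shown. The windows lie at chr5:139274091-139274120 (plus strand), chr20:49278632-49278661 (plus), chr1:28581854-28581883 (minus), chr6:85678714-85678743 (minus), chr6:31834906-31834935 (plus) and chr11:93741476-93741505 (minus).
SNHG4: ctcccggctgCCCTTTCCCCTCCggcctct
ZFAS1: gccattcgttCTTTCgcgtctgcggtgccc
SNHG12: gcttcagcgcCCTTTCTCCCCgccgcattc
SNHG5: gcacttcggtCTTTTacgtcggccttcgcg
SNHG32: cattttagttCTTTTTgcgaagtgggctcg
TAF1D: aatagccaacCCTTTTCTTCCgcacggttg
The tract spans 13 bases in SNHG4 and 11 in SNHG12 and TAF1D, and 5 or 6 in the others. A tract in these letters is a description of the annotated start, and the start used in these cells was not measured.

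Nuclear and structural noncoding RNAs were higher as a group. Of 18 tested of 31 listed, 13 were higher and 0 lower, with a median of 1.83 (1.23 under median scaling). In the authors' deposited value table, 12 were higher and 1 lower, and the median was 0.76. RNY1, a Y RNA bound by the Ro60 protein, stood at 8.66 and 8.26 in pool A against 5.78 and 5.49 in total RNA, where 1 array detected it (2.83 ± 0.20, adjusted p = 2.06e-06). RNY5 stood at 8.89 on both arrays against 6.26 and 6.61 (2.46 ± 0.24), and VTRNA2-1, a vault-related RNA that binds the kinase PKR, at 8.41 and 8.62 against 5.75 and 6.18 (2.55 ± 0.23). The pool A arrays lay above the total RNA arrays in all 3, as in 31.6% of all genes, and the 3 were named for their small p. Chosen after their values were seen, 2 abundant particle RNAs went apart. RN7SK, which holds the elongation factor P-TEFb inactive, differed by 2.46 (adjusted p = 9.27e-05), and RN7SL1, the RNA of the signal recognition particle, by -0.27 (adjusted p = 0.476).

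The array also carries probes within microRNA genes. These read the precursor or a transcript that contains it, not the mature microRNA. Of 33 tested, 18 were higher and 3 lower, with a median of 1.00, and those named here were chosen after their values were seen. MIR330 had the largest difference, at 9.30 and 8.77 in pool A against 6.04 and 6.42 in total RNA (2.80 ± 0.29, adjusted p = 1.53e-05), within EML2, a microtubule-binding protein gene at -0.24 and not called. MIRLET7D stood at 7.78 and 7.98 against 6.33 and 6.44 (1.50 ± 0.25, adjusted p = 0.000386). MIR98 was at least 1.61-fold higher (mean levels 6.26 and 5.42, adjusted p = 0.0191) within HUWE1, a ubiquitin ligase gene at -0.86. MIR25 was at least 1.56-fold lower (4.82 and 6.54, adjusted p = 9.67e-05) within MCM7, a subunit of the replicative helicase, at -1.16. The mature sequences of these genes are shown, from RefSeq on GRCh38.p14, to tell which families the precursors belong to, with the seed, bases 2 to 8, in capitals. They lie at chr19:45639009-45639031 and chr19:45639049-45639070 (minus strand), chr9:94178841-94178862 (plus), chrX:53556299-53556320 (minus) and chr7:100093571-100093592 (minus).
miR-330-3p: gCAAAGCAcacggccugcagaga
miR-330-5p: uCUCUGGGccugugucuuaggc
let-7d-5p: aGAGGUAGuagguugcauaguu
miR-98-5p: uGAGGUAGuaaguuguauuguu
miR-25-3p: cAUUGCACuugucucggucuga
The products of MIRLET7D and MIR98, both higher, share the let-7 seed.

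Replication-dependent histone mRNAs end in a stem-loop in place of a poly(A) tail and are made in S phase. Of 21 tested, 12 were higher and 1 lower, H4C3 at -0.65, with a median of 0.91. H2AC20 stood at 8.75 and 9.31 in pool A against 7.29 on one and 7.28 on the other total RNA array (1.74 ± 0.21, adjusted p = 3.54e-05). H2AC18 stood at 7.56 and 8.63 against 6.03 and 6.43 (1.87 ± 0.34), and H2BC21 was at least 2.50-fold higher (mean levels 6.90 and 5.09). Histone genes of a class are near-identical, and how their probes divide signal is uncertain. SLBP, which binds the histone stem-loop, differed by -1.47 (8.89 and 9.26 against 10.66 and 10.43), and by -0.56 with its other probe, which was not called. Under median scaling 7 histone genes were higher and 0 lower.

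Ribosomal protein mRNAs had medians near 0 but above the median of all genes, with single genes far from them. Of 43 large subunit genes, 11 were higher and 0 lower (median 0.19), and of 27 small subunit genes 4 were higher and 2 lower (median -0.013). In the authors' deposited value table the counts were 26 and 0 for the large subunit (median 0.59) and 12 and 1 for the small subunit (0.33). Under median scaling they were 14 and 1 for the large subunit (median 0.22) and 4 and 1 for the small subunit (-0.048). The large subunit median stood 0.35 above that of all genes, 0.84 above under median scaling and 0.61 above in the deposited value table. For the small subunit these values were 0.15, 0.57 and 0.35. RPL14 stood at 13.08 and 12.89 in pool A against 10.54 and 10.59 in total RNA (2.42 ± 0.33, adjusted p = 0.000106), and RPL13 at 12.12 and 11.94 against 9.73 and 9.66 (2.34 ± 0.25). RPL23A was higher by 1.76 and RPS23 by 1.52. RPS7 went the other way, at 10.19 and 10.62 against 11.81 and 11.47 (-1.24 ± 0.27, adjusted p = 0.00225). Ribosomal protein genes have many processed pseudogenes, so that signal from copies cannot be told apart.

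Translation factors were called at about the rate of all genes. Of 61, 9 were higher (14.8%) and 19 lower (31.1%), against 18.7% and 27.2% of all genes. Their median was -0.11, and 0.038 in the deposited value table. EIF4G1 is given above. EIF4A3, an RNA helicase of the exon junction complex, differed by -1.66 and EIF4H, a helper of the helicase eIF4A, by -1.60, while EIF2D, an initiator tRNA-binding factor, was higher by 1.32. Aminoacyl-tRNA synthetases, which charge tRNAs, were lower in 13 of 18 and higher in 0 (median -0.89). After IARS1, AARS1 stood at 10.62 and 10.33 against 12.03 and 12.16 (-1.61 ± 0.23), EPRS1 at 11.13 and 11.02 against 12.39 and 12.59 (-1.42 ± 0.24) and LARS1 at 8.84 and 9.01 against 10.26 and 10.33 (-1.36 ± 0.20). The groups did not overlap in these genes, which were named for their small p, nor in 76.6% of all genes.

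The secretory machinery of the plasma cell was mostly lower in pool A. Of 24 ER chaperones and disulfide enzymes tested of 27 listed, 19 were lower and 2 higher, with a median of -1.14. HSP90B1, the ER form of HSP90, stood at 10.84 and 10.73 against 13.33 and 13.25 (-2.50 ± 0.23, 5.67-fold, adjusted p = 7.62e-06). HYOU1, an ER-resident HSP70 relative, stood at 6.99 and 7.06 against 9.31 and 9.17 (-2.21 ± 0.21), and the calcium-binding chaperone CALR at 9.49 and 9.70 against 11.67 and 11.34 (-1.91 ± 0.22). The 2 higher members, named after their values were seen, were DNAJB9, an ER DnaJ protein (0.84, adjusted p = 0.0444), and DERL2, a membrane protein of ER-associated degradation (0.66, adjusted p = 0.0109). Of 30 translocon, signal peptidase and glycosylation genes, 18 were lower and 3 higher (median -0.73). SRP54, the signal peptide-binding subunit of the signal recognition particle, differed by -2.32, and the oligosaccharyltransferase subunits RPN2 and RPN1 by -1.94 and -1.78.

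Genes of plasma cell identity followed. Of 21 tested, 11 were lower and 3 higher (median -0.64), beside the summed marker signal given above. JCHAIN, which joins IgM and IgA units, stood at 12.77 and 13.06 against 14.20 and 14.23 (-1.30 ± 0.19), ITGB7, an integrin subunit, at 13.25 and 13.38 against 14.58 and 14.75 (-1.35 ± 0.21), and MZB1, an ER protein of antibody secretion, at 11.47 and 11.70 against 12.86 and 12.68 (-1.18 ± 0.19). The other MZB1 probe was at -0.076 and not called. The 3 higher members, named after their values were seen, were CD79A, a part of the B cell receptor, not detected in total RNA and at least 2.07-fold higher (adjusted p = 0.00337), and the surface receptors LY9 at 0.95 and SLAMF7 at 0.58 (adjusted p = 0.0467). PRDM1, the transcription factor of plasma cell differentiation, was at -0.030 (adjusted p = 0.915). CCND2, the D-type cyclin, differed by -1.36 ± 0.23 and IRF4, a lymphoid transcription factor, by -1.13 ± 0.27, or -0.85 without the X array of pool A (adjusted p = 0.0501). XBP1, the transcription factor of the unfolded protein response, differed by -0.52 (adjusted p = 0.0434) and by 0.16 in the deposited value table (adjusted p = 0.593). Without any 1 of the 4 arrays XBP1 was not called (-0.55 to -0.49). Of 2 common reference genes, ACTB, a cytoplasmic actin, differed by -1.51 (other probes -0.30, not called, and -1.91), and GAPDH, of glycolysis, by -0.45 (adjusted p = 0.0471). GAPDH was at 0.17 in the deposited value table (adjusted p = 0.457) and was not called under median scaling, by the mean of its probes or without any 1 of the 4 arrays.

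Protein turnover and folding genes stood on the lower side as well. Of 37 proteasome genes, 22 were lower and 0 higher (median -0.75). PSMB3, a subunit of the core particle, stood at 11.06 and 11.15 against 13.25 and 13.31 (-2.18 ± 0.18, adjusted p = 3.83e-06), PSMB2, another, at 10.36 and 10.69 against 12.49 on both (-1.96 ± 0.20), and PSMD1, of the regulatory cap, at 7.71 and 7.36 against 9.87 and 10.07 (-2.44 ± 0.26). Of 20 heat shock chaperones tested of 24 listed, 14 were lower and 1 higher (median -0.95), with HSP90AB1 at -1.65 and the mitochondrial chaperone HSPD1 at -1.32 with its brightest probe. Its other probes were at -0.34 and -0.059 and not called. Of 76 respiratory chain and ATP synthase genes, 31 were lower and 9 higher (median -0.42). In the deposited value table, 17 were lower and 15 higher (median -0.051), and under median scaling the list stood 0.10 above the median of all genes in place of 0.26 below it. NDUFC1, a small complex I subunit, was higher at 10.75 and 10.72 against 8.91 and 8.38 (2.09 ± 0.27), while UQCRC1, of complex III, differed by -1.68. Mitochondrial ribosomal protein genes were split, with 12 of 76 higher and 10 lower (median -0.095), and with 1 higher and 39 lower under median scaling.

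Among growth and division genes, lower calls outnumbered higher ones, as they did over all genes (27.2% lower and 18.7% higher). The shares called lower were 56.25% of mitotic, 54.8% of replication, 51.7% of MYC target, 44.4% of sterol and 39.4% of RNA decay genes. Of 32 mitotic genes, 18 were lower and 1 higher (median -0.72), with TPX2, a spindle assembly factor, at -2.59 and CENPF, a kinetochore protein, at -1.74. Of 31 replication and S phase genes, 17 were lower and 2 higher (median -0.64). The 2 extremes of that list were E2F1, the transcription factor of S phase entry, at 8.98 and 9.06 against 6.31 and 6.52 (2.61 ± 0.31, adjusted p = 3.56e-05), and UHRF1, which maintains DNA methylation, at -2.63. Of 29 MYC targets and ribosome assembly genes, 15 were lower and 4 higher (median -0.72). NCL, the nucleolar protein nucleolin, stood at 9.68 and 9.50 against 12.10 and 11.87 (-2.39 ± 0.26), and MYC itself differed by -0.90 (adjusted p = 0.00269). The other NCL probe was at -1.40 and called, and the other MYC probe at -0.73 and not called. Of 18 sterol synthesis genes, 8 were lower and 1 higher (median -0.62), with EBP, a sterol isomerase, at -1.86. Of 33 RNA decay genes, 13 were lower and 5 higher (median -0.58), with the nonsense-mediated decay factors SMG1 and UPF1 at -1.63 and -1.46.

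Genes of very large proteins were mostly lower. Of 34 tested of 45 listed, 27 were lower and 0 higher, with a median of -1.43, which is 1.27 below that of all genes (1.34 below under median scaling). In the authors' deposited value table, 29 were lower and 0 higher and the median was -0.78, less low than that of ER chaperones there (-0.94) and of aminoacyl-tRNA synthetases (-0.83). After DYNC1H1, UBR4, a giant ubiquitin ligase, stood at 7.62 and 7.66 against 10.19 and 10.20 (-2.55 ± 0.21, adjusted p = 5.31e-06). CREBBP, a histone acetyltransferase, differed by -2.08, and NIPBL, the cohesin loader, was at least 3.68-fold lower. The list was picked for protein size, and coding lengths were not used here, so the length of the gene on the chromosome was taken for all protein-coding genes.

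Over 9606 protein-coding genes, the difference fell with the genomic span, the distance from the gene's start to its end with introns. In the shortest of 5 equal groups, from 0.276 to 9.263 kb, the median difference was 0.17, with 28.9% higher and 17.0% lower. In the longest, from 84.005 to 2298.76 kb, it was -0.47, with 10.4% higher and 39.6% lower. The 3 groups between were at -0.093, -0.25 and -0.31. Spearman's rho across genes was -0.24 between span and difference, 0.017 between mean level and difference, and -0.20 between span and mean level. Genes are not independent replicates, and all share the 4 arrays, so these are descriptions. Span is mostly intron and stands only loosely for the length of the mRNA.

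**Figure D3:**
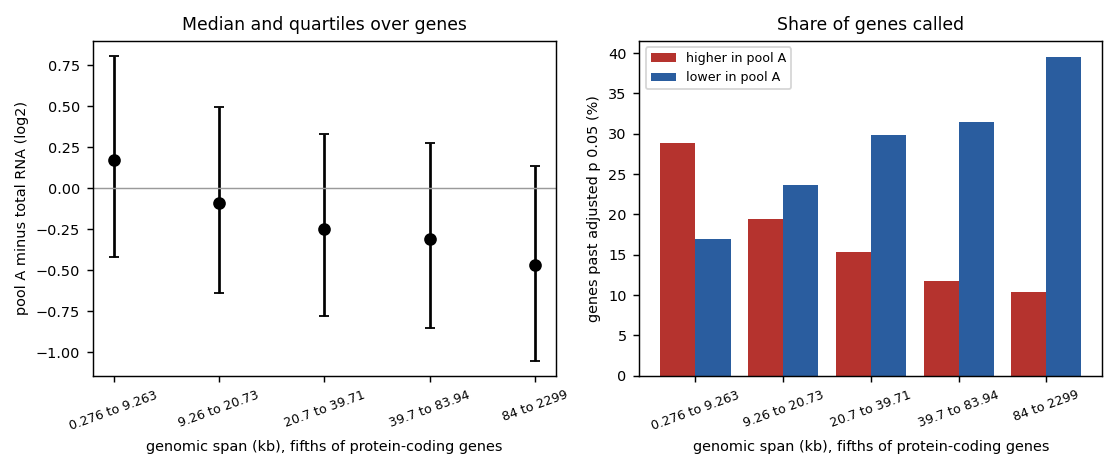
Protein-coding genes in 5 equal groups by genomic span (kb), with the median and quartiles of the difference between pool A and total RNA (log2) in one panel and the percentage called higher or lower in the other. The median falls from 0.17 in the shortest to -0.47 in the longest group, while the share called lower grows from 17.0% to 39.6%.

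Several lists of short-lived or regulated mRNAs stood on the higher side. Of 33 immediate early and feedback genes tested of 44 listed, 13 were higher and 2 lower (median 0.52, and 4 higher and 6 lower under median scaling, median 0.16). ZFP36, which binds AU-rich elements and speeds mRNA decay, stood at 11.51 and 11.77 against 9.54 and 9.76 (1.99 ± 0.26, adjusted p = 6.60e-05), SPRY1, an inhibitor of receptor tyrosine kinase signals, differed by 1.57 and JUN, a subunit of AP-1, by 1.36. Of 17 mRNAs known for upstream open reading frames, 7 were higher and 2 lower (median 0.57, and -0.095 under median scaling). DDIT3, the stress transcription factor CHOP, stood at 8.78 and 9.08 against 7.47 and 7.22 (1.58 ± 0.24). PPP1R15A, the phosphatase subunit that reverses phosphorylation of eIF2, stood at 9.87 and 9.94 against 8.57 and 8.51 (1.36 ± 0.21), and CEBPB, a bZIP transcription factor, at 11.45 and 11.32 against 10.16 and 9.92 (1.34 ± 0.22). In all 3 the groups were apart, as in 76.6% of all genes, and the 3 were named for their small p. ATF4, the best-known mRNA of this kind, differed by 0.57 ± 0.29 (adjusted p = 0.123). A further ATF4 probe was at 0.31 and not called, and a probe of another ATF4 transcript was at 1.63 and called. The targets of ATF4 in amino acid metabolism were lower in 11 of 21 and higher in 3 (median -0.67), with PHGDH, of serine synthesis, at -1.47.

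Zinc finger genes of the ZNF family, mostly KRAB repressors, were higher in 66 of 255 and lower in 22 (median 0.26). This direction depends on the scaling, as 19 were higher and 60 lower under median scaling (median -0.21), while the list stood 0.42 and 0.41 above the median of all genes in both. ZNF688 stood at 8.79 and 8.21 against 6.19 and 6.03 (2.39 ± 0.25), and ZNF407 was at least 3.70-fold lower. Of 19 mRNAs with iron response elements or selenocysteine codons, 9 were higher and 4 lower (median 0.35, and -0.049 under median scaling). FTL, the ferritin light chain, stood at 14.80 and 14.56 against 13.63 and 13.25 (1.24 ± 0.20), and the thioredoxin reductases TXNRD1 and TXNRD2 were lower, at -1.76 and -1.31.

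In the authors' deposited value table the median of all genes was -0.021, and several other lists stood nearer to 0 than in the values given above. The medians there were 0.51 for histones, 0.29 for immediate early genes, 0.37 for upstream reading frame mRNAs and 0.17 for ZNF genes. On the lower side they were -0.62 for heat shock chaperones, -0.48 for MYC targets, -0.30 for plasma cell genes, -0.20 for RNA decay genes and -0.16 for sterol synthesis genes.

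**Figure D4:**
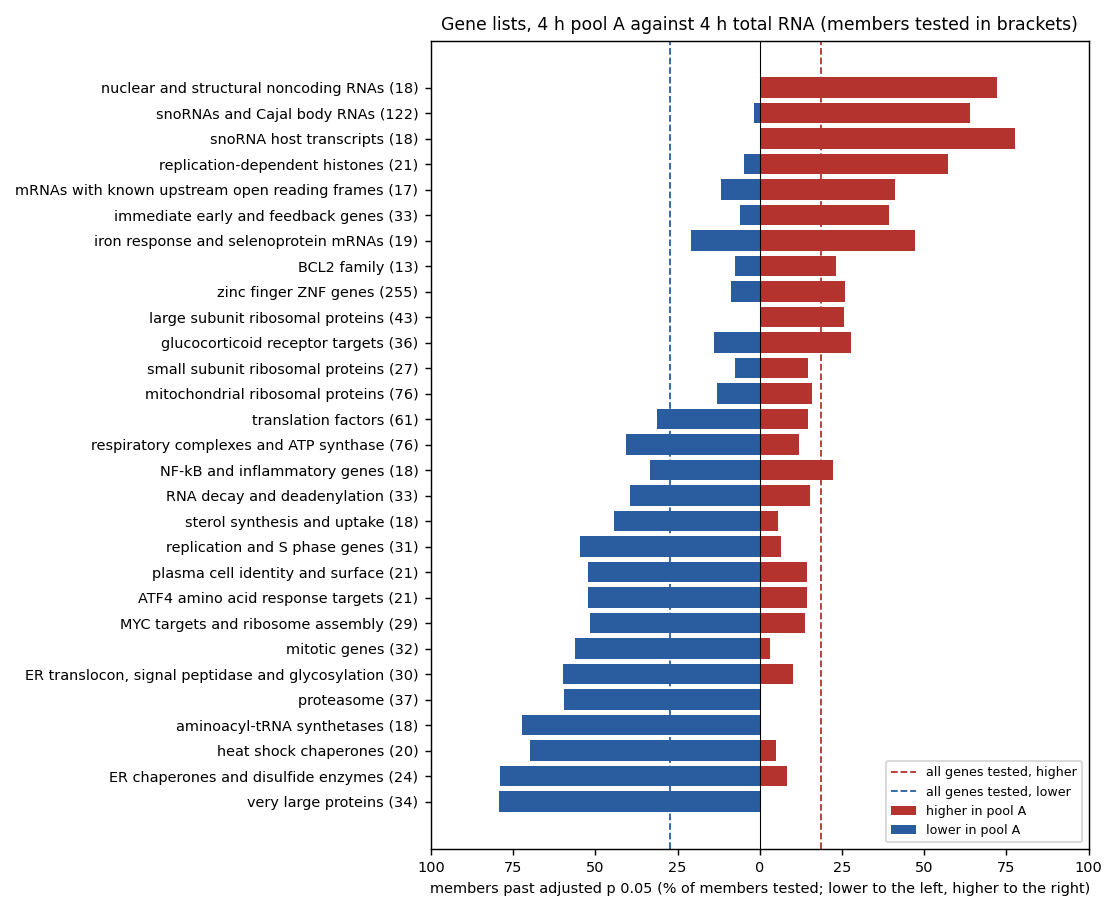
Percentage of the tested members of each gene list called higher (red, right) and lower (blue, left) in pool A against total RNA after 4 h of dexamethasone. The dashed lines mark the shares of all genes, 18.7% higher and 27.2% lower. Noncoding RNAs, snoRNA hosts and histones lie furthest to the right, and very large proteins, ER chaperones and aminoacyl-tRNA synthetases furthest to the left.

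Glucocorticoid receptor targets were split between the fractions. Of 36 tested of 44 listed, 10 were higher (27.8%) and 5 lower (13.9%) in pool A (median 0.13), against 18.7% and 27.2% of all genes. Under median scaling 5 were higher and 9 lower (median -0.28). SERTAD2, a transcriptional coregulator, stood at 12.83 and 12.70 against 10.96 and 11.17 (1.70 ± 0.22, adjusted p = 5.82e-05), SLC19A2, a thiamine transporter, at 8.68 and 8.51 against 7.09 and 7.05 (1.53 ± 0.24), and KLF13, a Krüppel-like transcription factor, at 10.47 and 10.53 against 11.78 and 11.90 (-1.34 ± 0.20). The receptor gene NR3C1 stood at 6.49 and 4.76 in pool A, where 1 array detected it, and at 6.99 and 7.37 in total RNA (-1.56 ± 0.43, adjusted p = 0.00948). That call rested on single arrays, as it was lost without the X array of pool A (-0.69) or that of total RNA (-1.37). Without the N arrays the difference was larger, at -2.42 for pool A and -1.75 for total RNA.

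For 3 classic induced genes, both pool A arrays lay below both total RNA arrays, as they did in 4564 of all 10163 genes (44.9%). None of the 3 was called in the fit of all 16 arrays. TSC22D3, the glucocorticoid-induced leucine zipper, stood at 12.52 and 12.74 against 13.29 and 13.43 (-0.73 ± 0.82, adjusted p = 0.487), FKBP5, a co-chaperone of the receptor, at 11.64 and 11.47 against 12.32 and 12.48 (-0.84 ± 0.54, adjusted p = 0.224), and DDIT4, an inhibitor of mTORC1, at 13.01 and 13.30 against 13.75 and 13.91 (-0.67 ± 1.10, adjusted p = 0.641). Their large standard errors came with the untreated N and X arrays that lay apart, given above. In the fit of the 8 arrays of 4 h alone, the same differences had adjusted p-values of 0.0155 for TSC22D3, 0.0124 for FKBP5 and 0.0218 for DDIT4. The fit that dropped the untreated X arrays is no second test of these, since 1 array per untreated group adds nothing to the spread. With arrays of equal prefix as a block, all 3 were called too, at 0.0144, 0.0177 and 0.0139. The deposited values put the 3 differences at -0.28, -0.66 and -0.052, not called. With the replicate block of that table FKBP5 was called (adjusted p = 0.0248), while TSC22D3 and DDIT4 were not (0.217 and 0.819). Other TSC22D3 probes were at 1.05 and -1.25 and not called.

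Of the BCL2 family, 13 tested of 16 listed, 3 were higher (23.1%) and 1 lower (7.69%), against 18.7% and 27.2% of all genes. The median was 0.26, and -0.46 under median scaling. HRK, a BH3-only death protein, stood at 9.57 and 9.21 against 7.62 and 7.25 (1.96 ± 0.36, adjusted p = 0.000732), and BBC3, another (PUMA), at 8.41 and 8.62 against 7.23 and 7.33 (1.23 ± 0.22). BCL2L11 (BIM), which is tied to glucocorticoid killing, differed by 1.00 with its brightest probe, while its other probes were at -0.51 and 0.65 and not called. It was at 0.79 without the N array of pool A (adjusted p = 0.0636) and at 0.88 without the X array of total RNA (adjusted p = 0.0557). BMF, also BH3-only, differed by -1.15 (adjusted p = 0.0249), by -1.23 to -1.08 without any 1 of the 4 arrays and then not called. The survival gene MCL1 differed by 0.11 (adjusted p = 0.712), and its other probe was at 0.85 and not called. Among 18 NF-kB and inflammatory genes, 4 were higher (22.2%) and 6 lower (33.3%), with NFKB2 at -1.90 and RELA at -1.56. These shares lie near those of all genes, 18.7% and 27.2%.

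Whether dexamethasone changed the difference between pool A and total RNA was tested as the difference at 4 h minus that at 0 h. In limma, 0 of 10163 genes (0%) passed, and 410 had an unadjusted p under 0.05, where 508 are expected if nothing changed. That unadjusted number depended on the processing. It was 350 with an intensity trend and robust fit, 518 in the deposited value table and 565 with arrays of equal prefix as a block. With the replicate block of the deposited value table it was 1003, and 0 genes passed in each of these fits. The count was also 0 with the 4 untreated X arrays left out (522 at an unadjusted p under 0.05). It was 16 without the untreated N array of pool A, 2 higher and 14 lower. At 0 h, 1899 genes were higher in pool A and 3042 lower. The median SE of the change was 0.37, against 0.26 for the difference at 1 time. The 3 smallest p-values in each direction all had an adjusted p of 0.534. TRIM31, a ubiquitin ligase, was at 8.02 and 8.23 in pool A and 6.27 and 5.68 in total RNA after 4 h, while at 0 h pool A was at 4.81 and 5.34 and total RNA at 4.66 and 5.44, below detection on all 4. MT1E, a metallothionein, stood at 7.07 and 6.19 in untreated pool A and at 4.95 and 4.91, below detection, in treated pool A. No size is given for these 2 changes, since the probes were below detection on 1 side. At 4 h and 0 h, list medians were 1.34 and 1.48 for snoRNAs, 1.83 and 2.54 for nuclear and structural noncoding RNAs, -1.43 and -1.43 for very large proteins, -1.14 and -1.28 for ER chaperones and 0.13 and 0.17 for receptor targets. Small nuclear RNAs stood at 2.17 and 3.07, Y RNAs at 1.79 and 2.64 and vault RNAs at 2.26 and 3.15. The change of a list as a whole was not tested. Of the 18 nuclear and structural RNAs, 0 were called for the change in limma and 4 had an unadjusted p under 0.05.

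Pool A also stood apart from the other polysome pools of the same time. Against the mean of pools B and C, 1989 genes (19.6%) were higher and 2589 (25.5%) lower. SnoRNAs made up the top, with 102 of 122 higher than in pools B and C and 2 lower (median 2.28). Because a gene needed detection on 2 of 16 arrays, snoRNAs seen in pool A but not in pools B and C entered here too. SNORD96B and SNORD69 were detected on no array of pools B and C at 4 h, and the number of such snoRNAs was not counted. SNORD96A differed by 6.01 ± 0.18 (adjusted p = 4.02e-10), whereas SNORD80, a C/D box RNA within GAS5, and SNORD83B were not detected in pool C on either array and were at least 57.5-fold and 53.1-fold higher (adjusted p = 7.62e-09 and 1.28e-09). In snoRNAs the medians against total RNA were 1.34 in pool A, -0.68 in pool B and -0.84 in pool C, and nuclear and structural RNAs stood at 1.83, -0.65 and -0.96. The 6 largest differences the other way included CBX1, a heterochromatin protein that was not detected in pool A. It was at least 4.08-fold lower than in pools B and C (adjusted p = 8.45e-08) and at least 2.49-fold lower than in total RNA. HNRNPL was at least 3.72-fold lower than in pools B and C, and differed by -2.24 in pool B and -1.91 in pool C from total RNA.

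The lists that were lower in pool A divided by what the other pools showed. These comparisons share the total RNA arrays and are set side by side. Proteasome genes had medians against total RNA of -0.75 in pool A, -0.92 in pool B and 0.66 in pool C, and PSMB3 stood at -2.18, -1.29 and 0.81. ER chaperones were at -1.14, -0.73 and 0.15. Very large proteins were low in all pools, at -1.43, -1.33 and -1.23. Aminoacyl-tRNA synthetases were at -0.89, -1.33 and -0.29. SnoRNA hosts went the other way, at 1.10, 0.62 and -1.51, and ZFAS1 at 1.70, 0.62 and -2.60. Histones were at 0.91, 1.13 and -0.12.

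**Figure D5:**
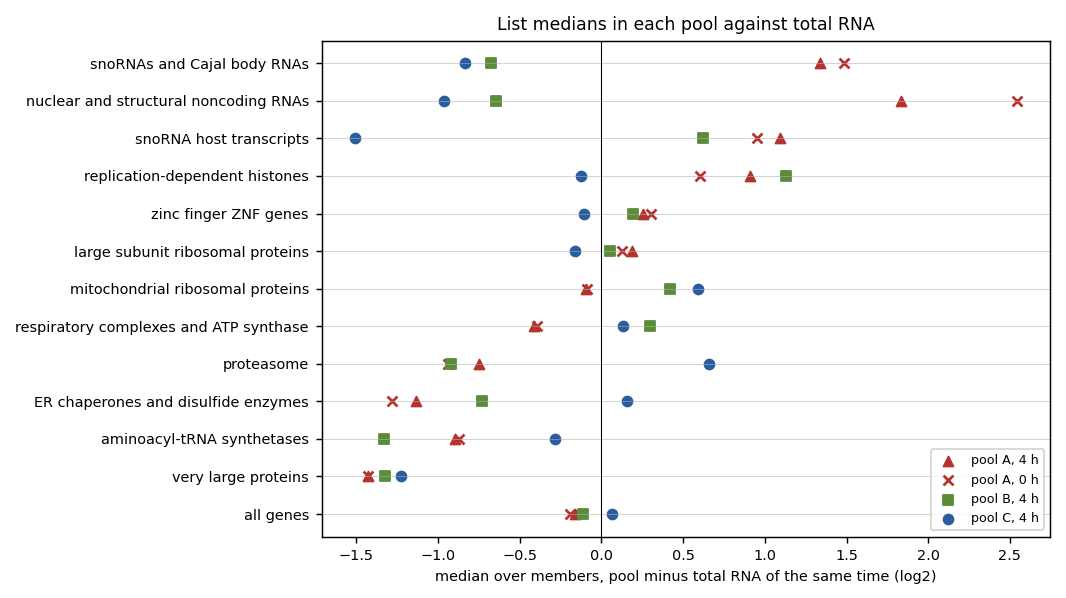
Median difference from total RNA of the same time (log2) for 12 gene lists and all genes, in pool A at 4 h, pool A at 0 h, pool B at 4 h and pool C at 4 h. SnoRNAs stand at 1.34 in pool A, -0.68 in pool B and -0.84 in pool C, and proteasome genes at -0.75, -0.92 and 0.66.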

How the data were processed

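The deposited non-normalized table gives linear intensities with detection p-values for each of 47323 probes on 16 Illumina arrays, per the file headers. The authors also deposited a table of normalized log2 values for the same samples. Its scale and direction were read by setting it against the intensities, where each of the 16 arrays correlated best with a column of its own group (smallest r = 0.996), and its normalization and centring stay unknown, with column medians from 7.21 to 7.41. Biotin labelling used an Ambion Illumina TotalPrep kit, per the labels' protocols. Of the value columns, 0 were left unused.

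Intensities were corrected with normexp (nec of limma, on detection p-values, offset 16), quantile-normalized and put on a log2 scale (R 4.3.3, limma 3.58.1). Probes with a detection p-value under 0.01 on at least 2 arrays were kept (17269). The platform annotation named 30121 probes, 30113 with 1 symbol, and 30092 matched RefSeq, from which current symbols were taken. Kept probes with 1 symbol (13289) gave 10163 genes, each by its brightest probe, and 2550 genes had more than 1. In 54 of these, probes were called in opposite directions. Of 3980 kept probes with no single symbol, 1152 were higher and 633 lower. A gene detected on no array of a group has only a bound there. Its fold is "at least" the brighter mean over the dim mean, each dim array taken at no less than its lowest detected signal.

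A mean for each of the 8 groups was fitted with limma (lmFit, contrasts, eBayes), with 8 residual and 5.36 prior degrees of freedom and Benjamini-Hochberg adjustment at 0.05, and tested on simulated data. Arrays of equal prefix deviated together at r = 0.14 (0.28 at 0 h), with 1 pair each, so the fit has no block. Genes named are the 15 largest differences each way among called genes whose arrays did not overlap, the 6 largest for pools B and C, up to 4 per list by p and a fixed set. The comparison and its 29 gene lists were chosen with earlier results of these data known. The number of arrays limits the precision.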

Additional observations from a re-analysis of the deposited data

How the results depend on the processing

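There were 25 alternatives, 1 of them (the 4 untreated X arrays left out) chosen after seeing the data. An array was left out only for results whose groups hold it. For pool A against total RNA, leaving out the untreated X arrays amounts to the fit of the 8 arrays of 4 h. With both arrays of pool A and of total RNA kept, their calls numbered 3719 to 5605, within 1.5 times the 4665 reported. The lowest values came from leaving out 1 array, 3331 to 3717, and 3322 to 4341 for pools B and C. The change between 0 h and 4 h had 0 to 16 calls when 1 array was left out, with 16 without the untreated N array of pool A. With the replicate numbers of the deposited value table as a replicate block there were 4582 calls in place of 3719 without it, and 5252 with arrays of equal prefix as a block. That table gave 54.2% higher among calls against pools B and C, in place of 43.4%, and median scaling 17.4%. Of 149 called named genes, 141 stayed called under median scaling; JUN, MRPL57, BBC3, BIRC2, BCL2L11, CCR1, GAPDH and XBP1 did not. Without 1 of the 4 arrays, at least once, BCL2L11, GAPDH, XBP1, GSDME, BMF, CCR1, IRF4 and NR3C1 lost their call. In the deposited value table GAPDH was at 0.17 and XBP1 at 0.16 (adjusted p = 0.457 and 0.593, and 0.391 and 0.448 with the replicate block), small subunit ribosomal proteins at 0.33 and translation factors at 0.038, with and without the block. By the mean of a gene's probes RNA28SN5, RPS26, HSPD1, BCL2L11 and GAPDH lost their call. Small subunit genes were at 0.096 by the mean of probes, and between -0.076 and 0.030 without 1 array. Receptor targets lay between -0.019 and 0.18 without 1 array. Under median scaling they were at -0.28, upstream reading frame mRNAs at -0.095, ZNF genes at -0.21, BCL2 genes at -0.46 and iron and selenoprotein mRNAs at -0.049. The cause was not tested. Dim probes have understated folds.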
